A study of Gallus gallus with 2 samples.

Results

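The mRNAs of cereblon neosubstrates, the proteins that the ubiquitin ligase receptor cereblon takes up for degradation when thalidomide or a related drug is bound to it, were followed in chick limb bud tissue. The genes were chosen by name. The list held SALL4, SALL1, SALL3, ZBTB16, TP63, CSNK1A1, GSPT1, WIZ, PATZ1 and RAB28, and rows were taken where the symbol of the deposited tables was one of these. Of the 10 listed genes, 9 had a row, each at 1 annotated locus, out of 17108 annotated genes in all. WIZ, a zinc finger protein that binds histone H3 lysine methyltransferases, had no row under its symbol and was not analysed here.

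The study compared limb buds of chick embryos, for which no strain is given, taken at Hamburger-Hamilton stage 22 (day 4), when the bud is a core of mesenchyme under ectoderm. Buds were cut up, and the pieces were split into vehicle (5% DMSO) and thalidomide (40 µg/ml) groups and kept for 4 h at 37 °C. The labels do not say whether the thalidomide pieces also received DMSO, whether fore and hind buds were mixed, or how many embryos were pooled. Each treatment had 1 library, so no difference has a replicate check, no test between treatments is possible, and every value describes these libraries.

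Cereblon sits in a cullin-4 ring ligase with DDB1 and RBX1. Bound thalidomide changes the surface of cereblon so that proteins with a suitable loop, often in a C2H2 zinc finger, are recruited and marked for the proteasome. SALL4 is the substrate most closely tied to limb malformation, because human loss-of-function variants of SALL4 cause limb defects that resemble those after thalidomide. The drug acts on the proteins, which were not measured, so the mRNA values do not show whether any of them was degraded. In bulk tissue, fewer cells of a type and less RNA per cell cannot be told apart.

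Levels are in FPKM, fragments per kilobase of transcript scaled to depth, and can be compared between genes. The deposited lower and upper limits of each value cover counting and fragment assignment within a library. Read as counting error alone, they give 23347700 inferred fragments with vehicle and 23266700 with thalidomide, and genes near 5 FPKM have a median of 518 and 572 fragments. Symbols were kept when they reached 1 FPKM in either library, which left 10915. Ratios are log2 of thalidomide over vehicle with 1 added to each FPKM, which understates the change of low genes, and the ± is the error propagated from the limits. The median log2 ratio of all kept genes was −0.05, with quartiles of −0.19 and 0.11. Rescaling both libraries to the same FPKM total moved that median to 0.08, a shift larger than many of the ratios below, so values relative to the median are given as well.

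All 9 measured genes were expressed in both libraries, and none differed by 1.5-fold, as 1.92% of all kept genes did. SALL4 was 19.1% higher in the thalidomide library, PATZ1 was 15.6% lower and RAB28 was 24.7% lower, and these 3 of the 9 had deposited intervals that did not overlap between libraries. Intervals did not overlap in 42.4% of all kept genes, 15.5% with the higher value under thalidomide and 26.9% with the lower, so 3 of 9 is no more than the background. At least 1.5-fold higher were 0.953% of kept genes and at least 1.5-fold lower were 0.971%. The median log2 ratio of the 9 genes was 0.04, with 5 genes above 0 and 4 below, beside 4477 kept genes above 0 and 6438 below in all. Of the 9, 5 lay between the quartiles of all kept genes.

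**Figure D1:**
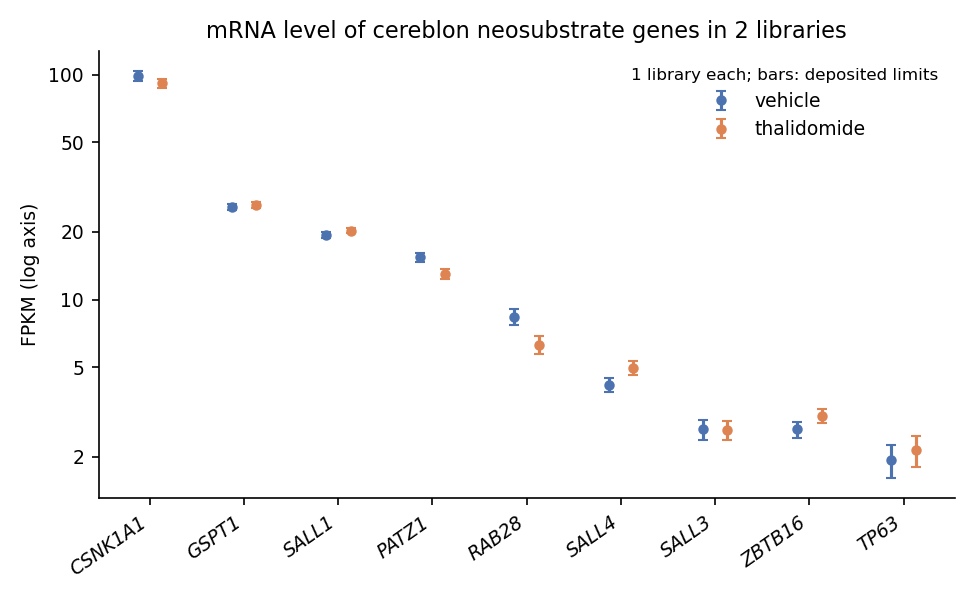
FPKM (log axis) of the 9 measured neosubstrate genes, 1 vehicle and 1 thalidomide library each, with bars from the deposited lower to the upper limit. The bars of each gene are apart for SALL4, PATZ1 and RAB28 and overlap for the other genes, and the levels run from about 2 FPKM for TP63 to over 90 for CSNK1A1.

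The SALL genes encode large zinc finger transcription factors of the spalt family, which repress through the NuRD deacetylase complex. SALL1 (ENSGALG00000003739; chromosome 11, 5418071 to 5433815 in galGal4), the gene of Townes-Brocks syndrome in humans, was the most abundant of the 3. It had 19.4 FPKM with vehicle, with limits of 18.9 and 19.9, and 20.3 FPKM with thalidomide, with limits of 19.8 and 20.8. The intervals overlapped only at their edges, and with 5535 and 6275 inferred fragments this was the best-counted gene of the set (log2 ratio 0.06 ± 0.03). After rescaling to the same FPKM total its intervals no longer overlapped (0.20 ± 0.03, or 0.12 above the median of all genes).

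SALL4 (ENSGALG00000007834; chromosome 20, 13433463 to 13447739) had 4.18 FPKM with vehicle, with limits of 3.88 and 4.49, and 4.98 FPKM with thalidomide, with limits of 4.63 and 5.33. The thalidomide interval lay wholly above that of vehicle, from 759 and 798 inferred fragments. These fragments rose by a smaller share than the 19.1% rise in FPKM. SALL4 was the only measured gene with fewer inferred fragments per FPKM with thalidomide than with vehicle, and the reason was not tested. The log2 ratio was 0.21 ± 0.06, or 0.25 above the median of all kept genes, and 86.2% of kept genes had a lower ratio. Among 2301 genes within 1.5-fold of its mean level, the quartiles of the log2 ratio were −0.14 and 0.17, so SALL4 lay just above the upper one. It was higher with thalidomide under every scaling tried, from 0.21 to 0.36, with intervals apart each time.

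SALL3 (ENSGALG00000012657; chromosome 2, 57012984 to 57032376) had 2.65 FPKM with vehicle and 2.63 with thalidomide, with limits of 2.38 to 2.92 and 2.37 to 2.89. These intervals cover almost the same range, and the log2 ratio of −0.01 ± 0.07 had no stable sign, since it was 0.04 after centring on all genes and 0.10 after rescaling. No difference was detectable at 391 and 408 inferred fragments.

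Within the family, SALL1 made up 74.0% of the summed SALL FPKM with vehicle and 72.7% with thalidomide. SALL4 made up 15.9% and 17.8%, and SALL3 10.1% and 9.42%. The SALL1 level was 4.64 times that of SALL4 with vehicle and 4.08 times with thalidomide. The difference in log2 ratio between SALL4 and SALL1 was 0.15 ± 0.07 and that between SALL4 and SALL3 was 0.22 ± 0.10, each a little over 2 times its counting error. Inferred fragments went from 759 to 798 for SALL4, from 5535 to 6275 for SALL1 and from 391 to 408 for SALL3. By that measure SALL4 rose by a smaller share than SALL1, so their order depends on the measure. A comparison of the differences in log2 ratio with the spread between tissue samples was not possible with 1 library per treatment.

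ZBTB16 and PATZ1 belong to the BTB zinc finger transcription factors. ZBTB16 (ENSGALG00000007011; chromosome 24, 4460401 to 4534848), also called PLZF, is needed for normal limb skeletal patterning in mouse. It had 2.65 FPKM with vehicle, with limits of 2.43 and 2.87, and 3.05 FPKM with thalidomide, with limits of 2.83 and 3.28. The limits overlapped slightly, and the log2 ratio was 0.15 ± 0.06, or 0.20 above the median of all kept genes. Among 1787 genes within 1.5-fold of its mean level, the quartiles of the log2 ratio were −0.15 and 0.16, so ZBTB16 lay just inside the upper one. After rescaling to the same FPKM total its intervals no longer overlapped (0.26 ± 0.06). The annotated locus of UBE4A, from 4392700 to 4566947, spans that of ZBTB16. UBE4A had 15.9 and 15.2 FPKM, and strand specificity of the libraries is not given in the sources used here, so reads of the 2 genes may not have been told apart wherever their transcripts coincide.

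PATZ1 (ENSGALG00000006934; chromosome 15, 9016146 to 9033904) had 15.4 FPKM with vehicle, with limits of 14.6 and 16.2, and 13.01 FPKM with thalidomide, with limits of 12.3 and 13.7. The thalidomide interval lay wholly below that of vehicle (log2 ratio −0.23 ± 0.05). Relative to the median of all kept genes the ratio was −0.18, and 19.0% of kept genes had a lower one. After rescaling to the same FPKM total PATZ1 had 14.6 and 13.7 FPKM (−0.09 ± 0.05) and its intervals overlapped.

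TP63 (ENSGALG00000007324; chromosome 9, 13522136 to 13675334) encodes p63, the p53 relative that the surface ectoderm and the apical ridge depend on. It had the lowest level of the set, 1.94 FPKM with vehicle and 2.15 with thalidomide, with limits of 1.61 to 2.26 and 1.81 to 2.49. The intervals overlapped over most of their length and rested on 141 and 160 inferred fragments, so its log2 ratio of 0.10 ± 0.11 was not detectable as a difference at this depth. Of 7 kept ectoderm markers, 2 had higher and 5 had lower values with thalidomide, as deposited and after rescaling to the same FPKM total. The median log2 ratio of the 7 was −0.20 as deposited and −0.06 after rescaling, or −0.15 and −0.14 relative to all genes. The summed level of the 12 matched markers, without rescaling, was 90.4 FPKM with vehicle and 73.7 with thalidomide.

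CSNK1A1 (ENSGALG00000001364; chromosome 13, 7791211 to 7815933) encodes casein kinase 1 alpha, which primes beta-catenin for destruction and is known as a cereblon substrate with lenalidomide. It was the most abundant gene of the set, with 99.0 FPKM with vehicle and 91.5 with thalidomide, and limits of 94.1 to 103.8 and 86.9 to 96.03. The intervals overlapped, and the log2 ratio of −0.11 ± 0.05 changed sign to 0.04 after rescaling to the same FPKM total. Genes at this level were mostly lower with thalidomide: the 512 genes within 1.5-fold of its mean level had a median of −0.20, below the ratio of CSNK1A1. Its limits lay 4.91% and 4.97% from the value, wider than the 2.81% and 3.06% typical of genes near 100 FPKM.

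GSPT1 (ENSGALG00000002910; chromosome 14, 115569 to 141085) encodes the release factor eRF3a, a GTPase that acts with eRF1 to end translation. It had 25.7 FPKM with vehicle and 26.4 with thalidomide, with limits of 24.9 to 26.5 and 25.6 to 27.2. The intervals overlapped, with 4249 and 4864 inferred fragments, and the log2 ratio was 0.04 ± 0.03. After rescaling to the same FPKM total the intervals did not overlap (0.18 ± 0.03, or 0.10 above the median of all genes).

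RAB28 (ENSGALG00000014931; chromosome 4, 77025249 to 77086996), a small GTPase of the Rab family, had the lowest ratio of the set. It had 8.39 FPKM with vehicle, with limits of 7.69 and 9.08, and 6.32 FPKM with thalidomide, with limits of 5.75 and 6.88. The thalidomide interval lay wholly below that of vehicle, from 579 and 500 inferred fragments (log2 ratio −0.36 ± 0.08). Of all kept genes, 6.32% had a lower ratio, and the lower quartile of 2699 genes within 1.5-fold of its level was −0.13. RAB28 remained below 0 under every scaling, but its intervals overlapped, at −0.19 ± 0.08, when the libraries were rescaled to the same total without mitochondrial and haemoglobin genes.

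**Figure D2:**
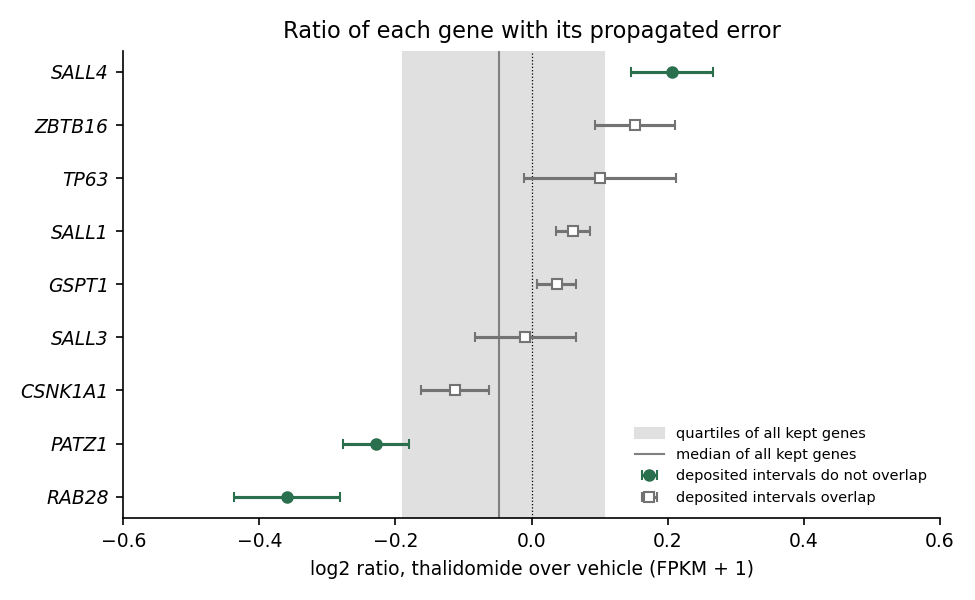
Log2 ratio of thalidomide over vehicle (FPKM + 1) for each neosubstrate gene, with the error propagated from the deposited limits; the grey band spans the quartiles of all 10915 kept genes. SALL4 at 0.21 and ZBTB16 at 0.15 lie above the band, PATZ1 at −0.23 and RAB28 at −0.36 lie below it, and the other genes lie inside.

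The order of levels was nearly the same in both libraries. From highest to lowest it ran CSNK1A1, GSPT1, SALL1, PATZ1, RAB28 and SALL4, with no overlap of intervals between neighbours in either library. SALL3 and ZBTB16 followed with overlapping intervals in both and changed places between them. TP63 came last, apart from ZBTB16 with vehicle and overlapping SALL3 with thalidomide. The level of CSNK1A1 was 51.1 times that of TP63 with vehicle and 42.6 times with thalidomide.

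Level and inferred fragments per FPKM both went with the ratio in these libraries. Across 10880 kept genes with fragments in both, the rank correlation (Spearman's rho) between the log2 ratio and mean FPKM was −0.26, and that between the log2 ratio and inferred fragments per FPKM was 0.24. Fragments per FPKM are a stand-in for transcript length that uncertain assignment lowers. These values share the same libraries, and genes are not independent replicates. SALL1 had 297 fragments per FPKM, above 94.7% of genes, ZBTB16 233, GSPT1 175 and SALL4 170. SALL3, with a ratio of −0.01, had 151. PATZ1 had 108, above 59.1% of genes, RAB28 73.3, above 41.7%, and CSNK1A1 17.2, above 4.61%, so PATZ1 and RAB28 were not far from the middle. The 3 lowest ratios of the set were thus at genes with fewer fragments per FPKM than any SALL gene, as was TP63 with 73.8, whose ratio was above 0. The part of length and level in these ratios was not tested.

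**Figure D3:**
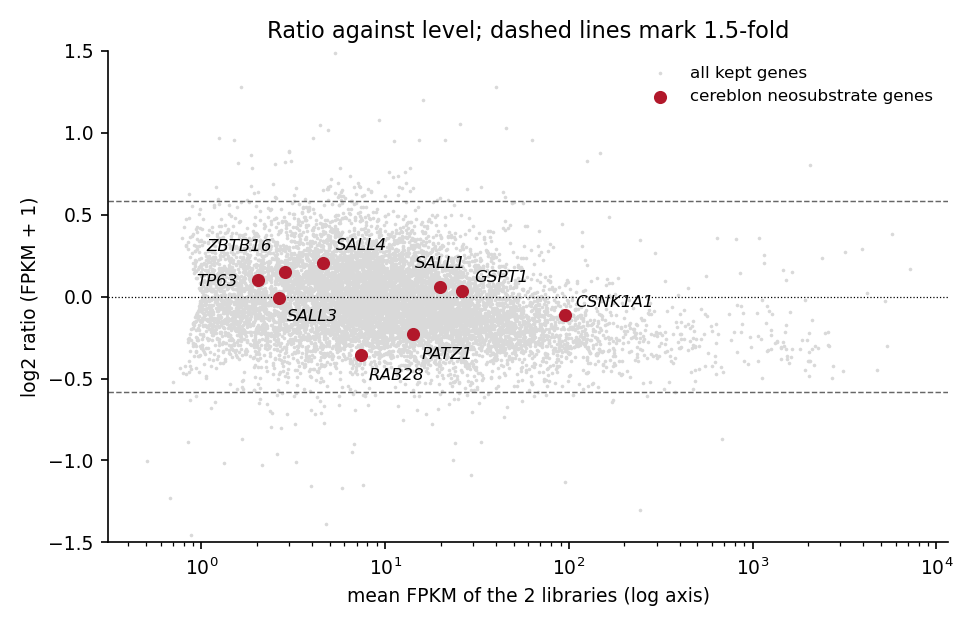
Log2 ratio (FPKM + 1) against mean FPKM (log axis) for all kept genes in grey and the 9 neosubstrate genes in red; 38 genes fall outside the plotted ratios. All 9 lie inside the dashed lines at 1.5-fold, and SALL4 at 0.21 and RAB28 at −0.36 are the extremes of the set.

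The genes of the ligase went both ways. CRBN had 4.46 and 5.13 FPKM (0.17 ± 0.08) and CUL4A, a cullin scaffold, had 5.38 and 6.14 FPKM (0.16 ± 0.07), both with overlapping intervals, while the adaptor DDB1 (30.7 and 25.4 FPKM, −0.26 ± 0.03), CUL4B (21.5 and 18.9 FPKM, −0.18 ± 0.02) and the ring subunit RBX1 (109.7 and 74.9 FPKM, −0.54 ± 0.05) were lower with intervals apart. After rescaling to the same FPKM total, CRBN and CUL4A were each at 0.29 and CUL4B was at −0.03. Intervals were then apart for 4 of the 5, all but CUL4B, beside 42.5% of all kept genes. CUL4B was at 0.003 when the libraries were rescaled to the same total without mitochondrial and haemoglobin genes. The median of these 5 was −0.13 relative to all genes.

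Other proteins reported as targets of cereblon were listed at 21 entries, of which 16 matched a row and 14 were kept. Of these, 8 were higher and 6 lower with thalidomide. Intervals were apart for 8 of the 14, beside 42.4% of all kept genes. They were apart with the higher value under thalidomide for 6 of the 14, beside 15.5% of all kept genes. Rescaled to the same FPKM total, which moved the median of all kept genes to 0.08, 13 of 14 were above 0. Above the median of all kept genes lay 8 of the 14 as deposited and 10 after rescaling. The median of the 14 was 0.06, which is 0.11 above the median of all kept genes, and this offset was also 0.11 after rescaling. The highest was GZF1, a BTB zinc finger gene, with 5.80 FPKM with vehicle and 8.95 with thalidomide (0.55 ± 0.12). It was followed by ZNF276, another zinc finger gene, with 6.97 and 8.34 FPKM (0.23 ± 0.07). The lowest were MEIS2, a homeobox gene of the proximal limb and an endogenous cereblon substrate, with 7.42 and 6.32 FPKM (−0.20 ± 0.06), and RNF166, a ubiquitin ligase gene, with 28.8 and 26.1 FPKM (−0.14 ± 0.03, but 0.01 after rescaling to the same FPKM total). None of the 14 reached 1.5-fold with 1 added to each FPKM, but GZF1 passed it with 0.1 added, after centring on all genes and after rescaling. The lymphoid factor IKZF1 had 0.0397 and 0.0442 FPKM, and IKZF3, listed as Aiolos, had 0.0791 and 0.0775, so these best-known targets in blood cells were near 0 here.

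Subunits of NuRD, the corepressor of SALL proteins, were split. Of 13 listed, 10 were matched and kept, 5 higher and 5 lower. Intervals were apart for 9 of the 10, beside 42.4% of all kept genes, and for 7 after rescaling to the same FPKM total, beside 42.5%. All 10 also passed a filter of 5 FPKM, with which the share of all kept genes was 50.5% as deposited. Limits narrow as levels rise, from a median of 8.79% of the value near 5 FPKM to 2.81% near 100 FPKM with vehicle. The deacetylase gene HDAC1 had 113 FPKM with vehicle and 132 with thalidomide (0.22 ± 0.02), and its paralog HDAC2 had 217 and 178 FPKM (−0.28 ± 0.02). The paralogs MTA1 and MTA3, scaffolds of the complex, also differed in sign, with 34.8 and 41.3 FPKM for MTA1 (0.24 ± 0.03) and 8.98 and 7.13 FPKM for MTA3 (−0.30 ± 0.06). All 4 signs held after rescaling. The median of the 10 was 0.01 above that of all genes.

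Limb genes linked to SALL4 in earlier mouse or chick work were listed at 11 entries, with 9 matched and 7 kept. Of these 7, 6 were higher and FGF10 alone was lower, both as deposited and after rescaling. Of all kept genes, 4477 were higher and 6438 lower as deposited. Rescaling to the same FPKM total moved the median of all kept genes to 0.08, so more of them were then above 0 than below. Above the median of all kept genes lay 6 of the 7, as deposited and after rescaling. Intervals were apart for 4, beside 42.4% of all kept genes. This count depended on the scaling. It was 6 after rescaling to the same FPKM total, beside 42.5%, and 7 with mitochondrial and haemoglobin genes left out of that total, beside 45.4%. The 2 matched genes under the filter were lower as deposited, with overlapping intervals. SHH had 0.777 FPKM with vehicle and 0.505 with thalidomide, and FGF8 had 0.775 and 0.765. With no filter, 6 of the 9 were higher and 3 lower. TBX5, the forelimb T-box factor that acts with SALL4 in mouse, had 22.5 FPKM with vehicle and 26.4 with thalidomide (0.22 ± 0.03). TBX4, its hindlimb counterpart, had 16.4 and 18.5 FPKM (0.16 ± 0.06), and GLI1, a reporter of Hedgehog signalling, had 13.5 in each (0.01 ± 0.06). FGF10, the outgrowth signal of the mesenchyme, had 15.6 and 11.4 FPKM (−0.42 ± 0.08). The median of the 7 was 0.09 above that of all genes.

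Partners of the remaining members were mixed as well. Of 12 translation termination and nonsense-mediated decay genes listed beside GSPT1, 9 were kept, 5 higher and 4 lower, with a median 0.15 above that of all genes. Intervals were apart for 6 of the 9, beside 42.4% of all kept genes, and for 7 after rescaling to the same FPKM total, beside 42.5%. The decay factor UPF3B had 24.4 FPKM with vehicle and 28.5 with thalidomide (0.22 ± 0.04), and HBS1L, which works in ribosome rescue, had 25.1 and 27.8 (0.14 ± 0.06). ABCE1, the ribosome recycling factor, had 69.5 and 60.6 FPKM (−0.20 ± 0.05), and SMG5 had 19.5 and 17.8 (−0.13 ± 0.04, but 0.01 after rescaling).

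Of 13 other casein kinase and beta-catenin destruction genes, 11 were kept, 5 higher and 6 lower, with a median 0.04 above that of all genes. Intervals were apart for 5 of the 11, beside 42.4% of all kept genes, and for 7 after rescaling to the same FPKM total, beside 42.5%. BTRC, the receptor of the ligase that takes up phosphorylated beta-catenin, had 4.56 FPKM with vehicle and 6.58 with thalidomide (0.45 ± 0.08). The kinase gene CSNK1D had 22.6 and 27.1 FPKM (0.25 ± 0.02), against 69.5 and 58.04 for its paralog CSNK1E (−0.26 ± 0.03). CTNNB1, the beta-catenin gene, had 277.8 and 246.01 FPKM (−0.17 ± 0.01, but 0.01 when rescaled without mitochondrial and haemoglobin genes).

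Of 16 genes of the p53 family and the epidermis listed beside TP63, 12 were kept, 3 higher and 9 lower. Among all kept genes 4477 were higher and 6438 lower. Beside 42.4% of all kept genes, 6 of the 12 had intervals apart, and 3 did after rescaling to the same FPKM total, beside 42.5%. Their median was −0.06 relative to all genes, and after rescaling 6 were higher and 6 lower. SFN, the epithelial 14-3-3 sigma gene, had 5.10 FPKM with vehicle and 3.46 with thalidomide (−0.45 ± 0.16), and the ectodermal transcription factor gene TFAP2A had 15.9 and 11.8 (−0.40 ± 0.08). The integrin gene ITGB4 had 1.90 and 2.52 FPKM (0.28 ± 0.06), and the keratin gene KRT15 had 1.70 and 2.003 (0.15 ± 0.11). Beside WIZ, EHMT1, which encodes a histone methyltransferase, had 17.0 and 18.02 FPKM (0.08 ± 0.04) and the insulator protein gene CTCF had 34.8 and 31.2 FPKM (−0.15 ± 0.03, but 0.03 when rescaled without mitochondrial and haemoglobin genes). No kept gene of these lists reached 1.5-fold with 1 added to each FPKM and no rescaling.

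**Figure D4:**
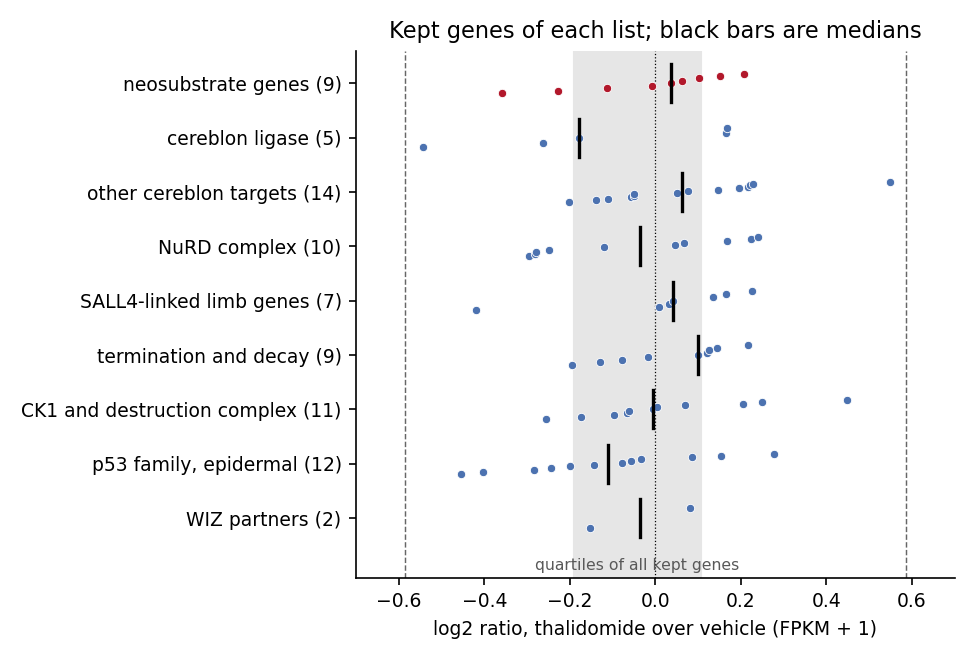
Log2 ratio (FPKM + 1) of each kept gene in the neosubstrate set (red) and in the pathway lists (blue), with the number of genes in brackets, the median as a black bar and the quartiles of all kept genes in grey. Every list has genes on both sides of 0, and no point passes the dashed lines at 1.5-fold.

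Markers of the tissue and of other cell types in the bud were read beside these values. Of all kept genes, 4477 were higher and 6438 lower as deposited, so a list with more genes lower than higher is common. After rescaling to the same FPKM total the median of all kept genes was 0.08, so more of them were above 0 than below. Limb mesenchyme markers were abundant, led by PRRX1 with 217 FPKM with vehicle and 185 with thalidomide and MSX1 with 177 and 129, and 7 of 9 were lower, or 6 after rescaling. The 2 that were higher as deposited, TBX5 and TBX4, are also among the SALL4-linked limb genes, and MEIS2 is also among the other cereblon targets. Ectoderm was led by Wnt6 with 23.2 and 16.8 FPKM and EPCAM with 23.2 and 19.8. Its kept markers KRT14, KRT15 and TFAP2A are also in the epidermal list, so counts of such lists are not independent. Of 6 kept endothelial markers 5 were lower, or 4 of 7 after rescaling, led by CDH5 with 13.9 and 10.6 FPKM and PECAM1 with 12.2 and 10.02. Erythroid markers were higher in 4 of 5, or 5 after rescaling, led by HBAA with 137 and 193 FPKM and HBE with 70.3 and 88.1, while HBZ is listed at 0 in both libraries. The 4 are all globin genes. The other kept erythroid marker, TAL1, listed as SCL, had 5.28 and 4.77 FPKM with overlapping intervals. Muscle markers were lower in 4 of 7, or 3 after rescaling (MYOD1 with 20.2 and 17.1 FPKM, DES with 8.84 and 7.13). Neural markers were higher in 4 of 6, although the most abundant, TUBB3 with 71.5 and 58.6 FPKM and ELAVL4 with 8.20 and 6.37, were lower. Macrophage markers were lower in 3 of 4, or 2 after rescaling (CD74, listed as Ii, with 9.91 and 8.64 FPKM, and SPI1 with 1.08 and 1.07). The intervals of CD74 and SPI1 overlapped. The 2 macrophage markers with intervals apart went opposite ways, CSF1R with 1.13 and 0.771 FPKM and PTPRC with 0.719 and 1.07.

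SALL4 is also a gene of pluripotent and germ cells, and 5 of the 6 matched markers of those cells stayed under 1 FPKM in both libraries. The exception, LIN28B, which early embryonic tissues also express, had 3.86 FPKM with vehicle and 4.37 with thalidomide (0.14 ± 0.05). The summed level of the 6 was 4.57 FPKM with vehicle and 5.05 with thalidomide. The part of cell composition in the values of the neosubstrate genes was not tested.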

How the data were processed

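RNA from 1 vehicle and 1 thalidomide sample of limb bud was sequenced. Tools listed without role or order in the submitters' processing notes are STAR 2.4.2a, Cufflinks 2.2.1, bcl2fastq and Cuffdiff, and the assembly is galGal4. Each deposited file holds, per the file headers, a gene-level FPKM and its 2 confidence limits, which the authors computed from their reads. No count is given, so no count test was run. Starts in the files count from 0 and were raised by 1.

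Rows of 1 symbol, ignoring case, were summed (128 symbols), with limits combined in quadrature. The upper limit was read as lying 2 SD above the FPKM, which gave errors and inferred fragment numbers. The filter was 1 FPKM, the pseudocount 1 and the fold for counting 1.5. The ratio and interval steps were checked on simulated libraries with counting noise only. That check cannot show how often intervals come apart through spread between tissue samples, which the simulation leaves out. The members and the 16 gene lists were chosen with earlier results of these data known. Of 167 list entries 140 matched, 7 through an older symbol in the RefSeq table of assembly GRCg7b. The genes named from a pathway list are its 2 highest and 2 lowest ratios, and from a marker list its 2 most abundant and any marker listed at 0 in both libraries. CRBN and its ligase were named in addition. So were UBE4A, IKZF1, IKZF3, SHH, FGF8, TAL1, KRT14, CSF1R and PTPRC, after their values were seen. Python 3.11.15, numpy 2.4.6 and pandas 2.3.3 were used. No sequence of these genes was used here.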

Additional observations from a re-analysis of the deposited data

How the results depend on the processing

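The median log2 ratio of the 9 genes, 0.04 as reported, was 0.18 after rescaling to a common FPKM total and 0.22 with mitochondrial and haemoglobin genes left out of that total. It was −0.11 with a filter of 5 FPKM, which keeps 5 of the genes and drops SALL4, SALL3, ZBTB16 and TP63. Intervals did not overlap for 5 genes in place of 3 after rescaling to the same total, 4 higher and 1 lower, beside 42.5% of all kept genes. With mitochondrial and haemoglobin genes left out they did not overlap for 4, all higher, beside 45.4% of all kept genes. These 2 rescalings moved the median of all kept genes to 0.08 and 0.12. At least 1.5-fold higher were then 241 and 304 kept genes, against 58 and 50 lower. Shares of all kept genes apart in each direction were not worked out for them, so the directions among the 9 have no such share beside them. SALL3 and CSNK1A1 changed sign in both rescalings. They were at 0.10 and 0.04 with the same total, and at 0.13 and 0.08 with mitochondrial and haemoglobin genes left out of it. The count of the 9 genes at 1.5-fold was 0 under every alternative run, which included a pseudocount of 0.1, no filter, single loci in place of sums and leaving out loci under 300 bases. No paired analysis was possible because each treatment has 1 library, and for the same reason no library could be left out. Depth limits TP63 most, whose deposited limits lie 16.8% and 15.8% from its values.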
